A study of Mus musculus with 12 samples.

Results

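The genes described here encode the integrins, the laminins and the main partners of laminin in basement membranes. They were chosen by symbol: every integrin alpha or beta subunit (Itga or Itgb followed by its number or letter), every laminin chain (Lama, Lamb or Lamc with its number), and Nid1, Nid2, Hspg2, Agrn and Dag1. The rule found 42 of the 16411 genes in the count table, made up of 18 integrin alpha subunits, 8 integrin beta subunits, 11 laminin chains and the 5 others. It left out 4 symbols that begin alike but name other proteins (Itgb1bp1, Itgb1bp2, Itgb3bp and Itgbl1). The rule itself uses symbols and no measured value, but the genes were chosen with earlier results of these data known.

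Integrins are receptors made of an alpha and a beta subunit that span the cell membrane and tie the extracellular matrix or another cell to the cytoskeleton. The subunit pair sets the ligand: some pairs bind laminin, some collagen, some the RGD sequence of fibronectin, vitronectin and related proteins, and some are found on leukocytes. Laminins are trimers of an alpha, a beta and a gamma chain that form a network in the basement membrane, the thin sheet of matrix under epithelia and around fat cells, muscle fibers, nerves and vessels. Nidogens and perlecan (Hspg2) join that network to collagen IV, while agrin (Agrn) binds laminin and dystroglycan (Dag1) is a laminin receptor outside the integrin family. In the mammary gland the outer myoepithelial cells rest on the basement membrane and, with stromal cells, make much of it.

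RNA was sequenced from 6 benign and 6 tumor samples of female mice. All 12 came from the MMTV-Neu-NDL-YD5 line on the FVB background, in which an activated form of Neu, the rodent HER2, is expressed in the mammary epithelium from the MMTV promoter. The benign samples therefore carried the transgene too and were pieces of mammary gland with no visible tumor, not tissue of wild-type mice. No drug or other treatment separated the groups, tumors and benign tissue came from different mice, and the labels give no age per sample. Libraries held between 5240853 and 8170687 counts in benign samples and between 6111393 and 8588567 in tumors. All values below are CPM, a gene's counts relative to the total of its library after TMM scaling, and a gene was called changed at an adjusted p under 0.1 in edgeR's quasi-likelihood test, with Benjamini-Hochberg adjustment over all 13191 genes tested.

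The 2 kinds of tissue differed in the RNA of cell type marker genes. Each piece was sequenced in bulk, so fewer cells of a type and less RNA per cell cannot be told apart in any result below. In stained sections, by contrast, the paper reports a smaller immunopositive area for every cell type in benign tissue than in tumors. Vimentin and CD31 were among its stains, and it describes mesenchymal and epithelial cells as dominant in both groups. Stained area and RNA are unlike measures. Summed luminal epithelial markers ran from 1014 to 2882 CPM in benign samples and from 3412 to 4776 CPM in tumors. Of these 10 markers 8 were higher, while Krt19 was lower (356 and 13.3 CPM on average). Summed basal and myoepithelial markers ran from 888 to 1935 CPM in benign samples and from 61.3 to 159 CPM in tumors, and all 9 were lower. White fat markers (8 of 8), fibroblast markers (8 of 8) and endothelial markers (10 of 10) were lower in tumors as well, with sums of 185 to 272 CPM against 5672 to 12631 CPM, 504 to 1188 CPM against 5056 to 13037 CPM, and 98.1 to 122 CPM against 676 to 1345 CPM. Some benign samples stood apart from the others: skeletal muscle markers summed to 57552, 37291 and 95182 CPM in benign samples 3, 4 and 6 but to 18.3, 25.1 and 380 CPM in samples 1, 2 and 5, and leukocyte markers summed to 2092 CPM in benign sample 1 against 93.2 to 149 CPM in the other 5. No listed marker was at 0 in all 6 tumors.

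Of the 42 genes, 41 passed the filter on low counts and were tested. Of these, 13 were higher and 22 lower in tumors, Lamc3 and Itgb7 among the latter although they passed only through the benign samples. That is 85.4% called, while 63.0% of all genes tested were called, 28.2% as higher and 34.8% as lower. Among the 41, 31.7% were higher and 53.7% lower, so the members' share stood above the background mainly among genes that were lower. The median log2 fold change was -0.59 over the members and -0.06 over all genes. In 6 members every tumor lay above every benign sample and in 15 every tumor lay below, while the same held for 14.7% and 21.2% of all genes. Without the muscle-rich benign samples 3, 4 and 6, 12 members were higher and 20 lower, and without benign sample 1, 13 were higher and 20 lower.

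The direction differed by class. Of 25 integrin subunits tested, 10 were higher and 11 lower, whereas of 11 laminin chains 2 were higher and 7 lower, and of the 5 remaining genes only Agrn was higher. All 5 beta subunits that serve as shared or RGD-binding partners were higher, and all 4 collagen-binding alpha subunits were lower.

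**Figure D1:**
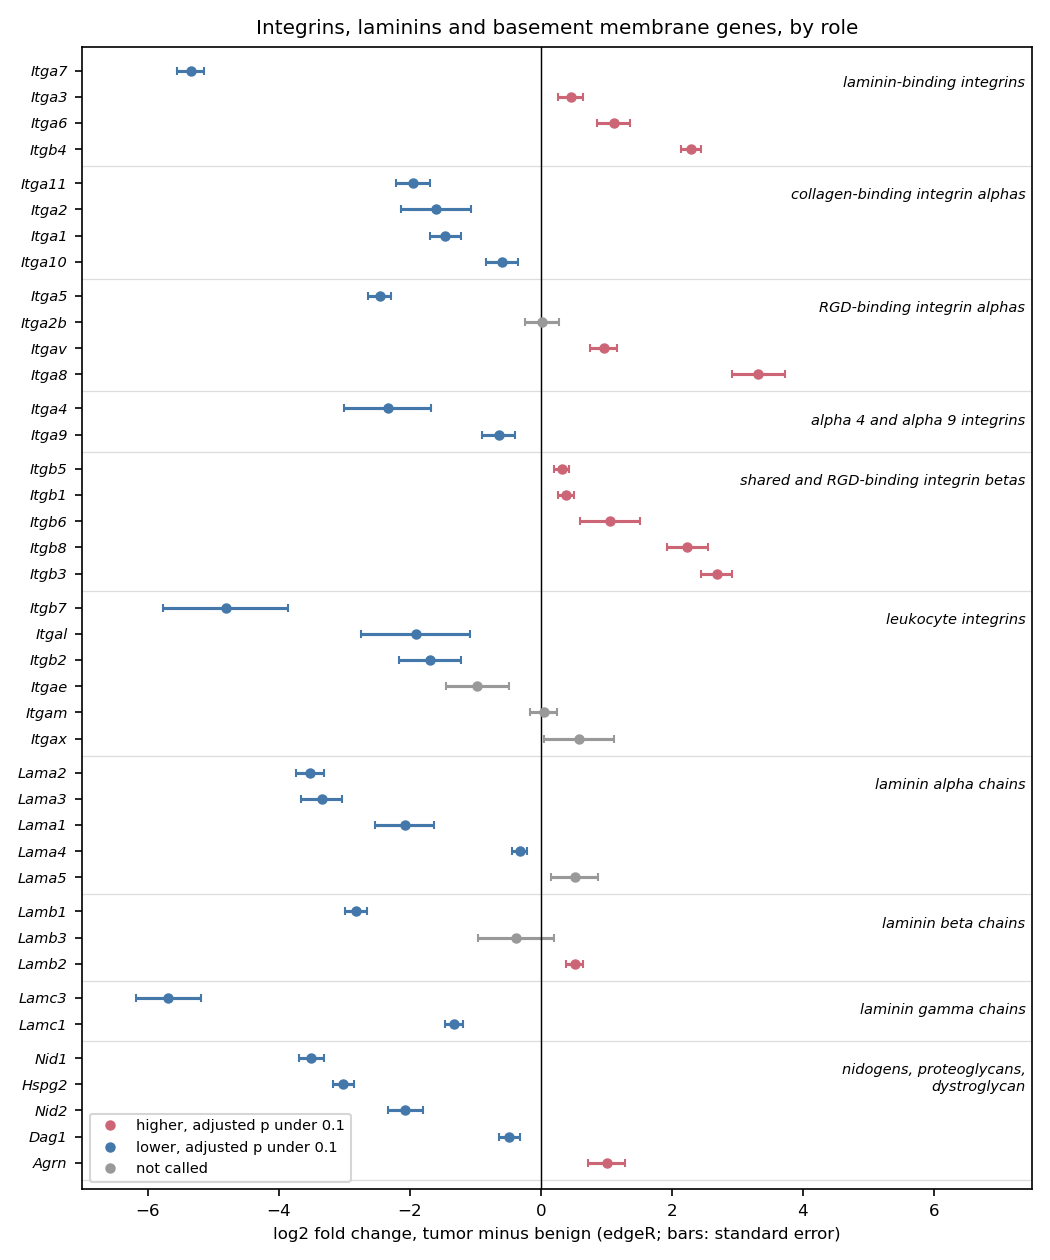
Log2 fold change of the members in tumors over benign tissue (x axis), grouped by role (y axis), with bars for the standard error (6 benign and 6 tumor samples). Values run from -5.68 for Lamc3, which passed the filter on low counts only through the benign samples, to 3.32 for Itga8, with the shared and RGD-binding beta subunits all to the right of 0 and the nidogens, Hspg2 and most laminin chains to the left.

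The region before the start of the gene is shown for 4 members, since members that moved furthest in opposite directions can then be compared. They are the 2 that rose most and the 2 that fell most among called members that had an entry in the promoter table, groups that did not overlap and a spread smaller than the mean. Each window covers 250 bases before to 50 after the RefSeq start (300 bases, GRCm38.p6, minus strand for Itga8, Itgb8 and Lama2 and plus strand for Nid1), and capitals mark the motifs found. The table held a window for 27 of the 42 genes.
Itga8 chr2:12301895-12302194: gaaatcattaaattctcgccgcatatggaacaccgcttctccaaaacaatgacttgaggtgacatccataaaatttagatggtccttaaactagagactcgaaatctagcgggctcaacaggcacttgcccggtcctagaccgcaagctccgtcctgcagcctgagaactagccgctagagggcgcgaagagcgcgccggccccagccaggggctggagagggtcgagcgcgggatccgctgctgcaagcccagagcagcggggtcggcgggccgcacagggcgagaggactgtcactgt
Itgb8 chr12:119238227-119238526: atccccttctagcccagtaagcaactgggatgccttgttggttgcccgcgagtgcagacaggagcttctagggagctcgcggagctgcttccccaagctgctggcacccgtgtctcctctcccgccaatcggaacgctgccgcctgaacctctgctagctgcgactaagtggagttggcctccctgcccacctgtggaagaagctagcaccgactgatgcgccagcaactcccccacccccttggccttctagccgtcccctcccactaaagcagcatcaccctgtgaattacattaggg
Lama2 chr10:27616893-27617192: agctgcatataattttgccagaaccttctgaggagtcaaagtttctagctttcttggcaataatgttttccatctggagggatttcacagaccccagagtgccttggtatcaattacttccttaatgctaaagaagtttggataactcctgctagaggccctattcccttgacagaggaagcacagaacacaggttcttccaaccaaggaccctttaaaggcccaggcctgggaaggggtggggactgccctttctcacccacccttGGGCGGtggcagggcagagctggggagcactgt
Nid1 chr13:13437352-13437651: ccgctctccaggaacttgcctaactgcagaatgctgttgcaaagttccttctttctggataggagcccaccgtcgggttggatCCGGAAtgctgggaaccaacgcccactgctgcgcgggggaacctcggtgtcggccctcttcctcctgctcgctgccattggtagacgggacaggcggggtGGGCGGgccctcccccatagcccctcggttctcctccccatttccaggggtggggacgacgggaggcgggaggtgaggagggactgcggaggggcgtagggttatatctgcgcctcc

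A search on both strands for the GC box GGGCGG, the TATA box TATAAA, the ETS core CCGGAA, the AP-1 site TGACTCA and the E-box CACGTG found none in the windows of Itga8 and Itgb8, a GC box in Lama2, and a GC box and an ETS core in Nid1. The Itgb8 and Lama2 windows lie inside these genes' spans in GENCODE, which have starts further upstream. GC content was 59.0% for Itga8, 60.7% for Itgb8, 50.3% for Lama2 and 64.7% for Nid1. Across the 27 members counted, the GC box was in 5 of 9 higher, 8 of 13 lower and 2 of 5 not called. Of all 32851 windows in the table, 35.7% held it. The ETS core was in Itgb1, Itga3 and Nid1 (14.9% of all windows) and the AP-1 site in Itga9 and Itgax (5.20%). The TATA box (13.6%) and the E-box (7.15%) were in 0 of 27. These are matches of letters in a window and were not tested as binding sites.

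Among the laminin-binding integrins, the alpha 6 and beta 4 subunits, which pair in hemidesmosomes, were higher in every tumor than in any benign sample, alpha 3 was slightly higher, and alpha 7 was nearly lost. Itgb4 (chr11:115974709-116008412, plus strand) was at 49.7, 81.4, 72.8, 51.1, 74.7 and 51.1 CPM in benign samples 1 to 6 and at 274, 302, 351, 284, 343 and 311 CPM in tumors 1 to 6. The groups were far apart and the tumors close together. The means were 63.5 ± 14.4 and 311 ± 31.3 CPM (SD, n = 6 each), a log2 fold change of 2.29 (SE 0.15, edgeR adjusted p = 8.5e-08).

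Itga6 (chr2:71745616-71858416, plus strand), which pairs with either beta 1 or beta 4, was at 164, 215, 237, 104, 218 and 80.8 CPM in benign samples and at 371, 387, 400, 337, 438 and 272 CPM in tumors. The lowest tumor, tumor 6, lay above the highest benign sample, and the log2 fold change was 1.11 (SE 0.25, edgeR adjusted p = 0.0021). Itga3, whose protein pairs with beta 1 to bind laminin, overlapped between groups, with 3 tumors above every benign sample. Benign samples averaged 55.9 ± 16.4 CPM and tumors 76.7 ± 15.2 CPM (SD, n = 6), a log2 fold change of 0.45 (edgeR adjusted p = 0.062) that lost its call without benign sample 4 or 6.

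Itga7 (chr10:128933818-128958282, plus strand), a laminin receptor best known from muscle, was at 83.6, 125, 99.6, 144, 126 and 151 CPM in benign samples and at 2.33, 3.03, 3.13, 2.70, 2.30 and 4.28 CPM in tumors. The log2 fold change was -5.34 (SE 0.21, edgeR adjusted p = 1.9e-09). Benign samples 1, 2 and 5, whose muscle markers were low, held 83.6, 125 and 126 CPM, and the muscle-rich ones held 99.6, 144 and 151 CPM. The part of muscle content in the fall of Itga7 was not tested. Per length, Itga7 stood at 0.450 to 2.01 times Itga6 in benign samples, with a median of 0.624, and at 0.00563 to 0.0169 times in tumors. Per length again, Itgb4 stood at 0.210 to 0.439 times Itga6 in benign samples and at 0.512 to 0.793 times in tumors, so the ratio of these partner transcripts did not overlap between groups. The ratio of Itga6 to Itga3 did not overlap either, at 2.11 to 4.43 in benign samples and 4.84 to 6.63 in tumors. Measured over the union of exons, the ratio of Itgb4 to Itga6 was 0.390 to 0.814 and 0.948 to 1.47, and that of Itga6 to Itga3 was 1.18 to 2.49 and 2.71 to 3.72, again without overlap.

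The RGD-binding alpha subunits split: alpha 8 and alpha v were higher, alpha 5 was lower and alpha IIb was not called. Itga8 (chr2:12106632-12301922, minus strand), which pairs with beta 1, had the largest rise of any member. It was at 12.6, 17.1, 14.2, 8.73, 15.1 and 13.1 CPM in benign samples and at 48.9, 228, 234, 126, 123 and 53.5 CPM in tumors. Every tumor lay above every benign sample, though tumors 1 and 6 were far below tumors 2 and 3. The log2 fold change was 3.32 (SE 0.40, edgeR adjusted p = 1.4e-05).

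Itgav, the alpha subunit shared by the integrins of beta 3, beta 5, beta 6 and beta 8, was at 49.3 to 70.3 CPM in benign samples (median 52.2) and at 64.5 to 156 CPM in tumors (median 103), with 5 tumors above every benign sample and a log2 fold change of 0.96 (SE 0.20, edgeR adjusted p = 0.0013). Itga5, the main fibronectin receptor alpha subunit, was at 38.3 to 60.9 CPM in benign samples and at 5.67 to 11.3 CPM in tumors, a log2 fold change of -2.46 (SE 0.17, edgeR adjusted p = 1.2e-07). Itga2b, the platelet subunit, averaged 8.85 ± 1.08 and 9.0 ± 4.33 CPM (SD, n = 6) and had an adjusted p of 0.95 in edgeR.

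Every shared or RGD-binding beta subunit was higher in tumors, by unequal amounts. Itgb1, the partner of most alpha subunits, was at 396, 419, 419, 384, 433 and 444 CPM in benign samples and at 441, 686, 603, 537, 490 and 492 CPM in tumors. Tumor 1 fell within the benign range and the other 5 lay above it, giving a log2 fold change of 0.38 (SE 0.12, edgeR adjusted p = 0.019). Itgb3 (chr11:104608000-104670476, plus strand), which pairs with alpha v and with alpha IIb, was at 30.6, 16.8, 14.0, 16, 20.6 and 16.3 CPM in benign samples and at 81.4, 140, 171, 130, 82.2 and 132 CPM in tumors. The groups did not overlap, and the log2 fold change was 2.69 (SE 0.24, edgeR adjusted p = 8.8e-07).

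Itgb8 (chr12:119158022-119238802, minus strand), which with alpha v binds latent TGF-beta, was at 13.9, 18.4, 9.76, 9.26, 16.9 and 7.81 CPM in benign samples and at 29.0, 108, 70.3, 56.8, 46.2 and 49.1 CPM in tumors. It did not overlap between groups (log2 fold change 2.23, SE 0.31, edgeR adjusted p = 5.5e-05). Itgb5, a vitronectin receptor subunit, moved from 178 ± 22.4 to 221 ± 22.4 CPM (SD, n = 6), a log2 fold change of 0.32 with an edgeR adjusted p of 0.030. Itgb6, an epithelial subunit, moved from 8.35 ± 6.63 to 17.2 ± 6.73 CPM. Only 2 tumors lay above every benign sample for Itgb6, its log2 fold change of 1.05 (edgeR adjusted p = 0.067) lost its call without benign sample 4 or 5 or without tumor 2 or 3, and it was 2.28 without benign samples 3, 4 and 6.

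**Figure D2:**
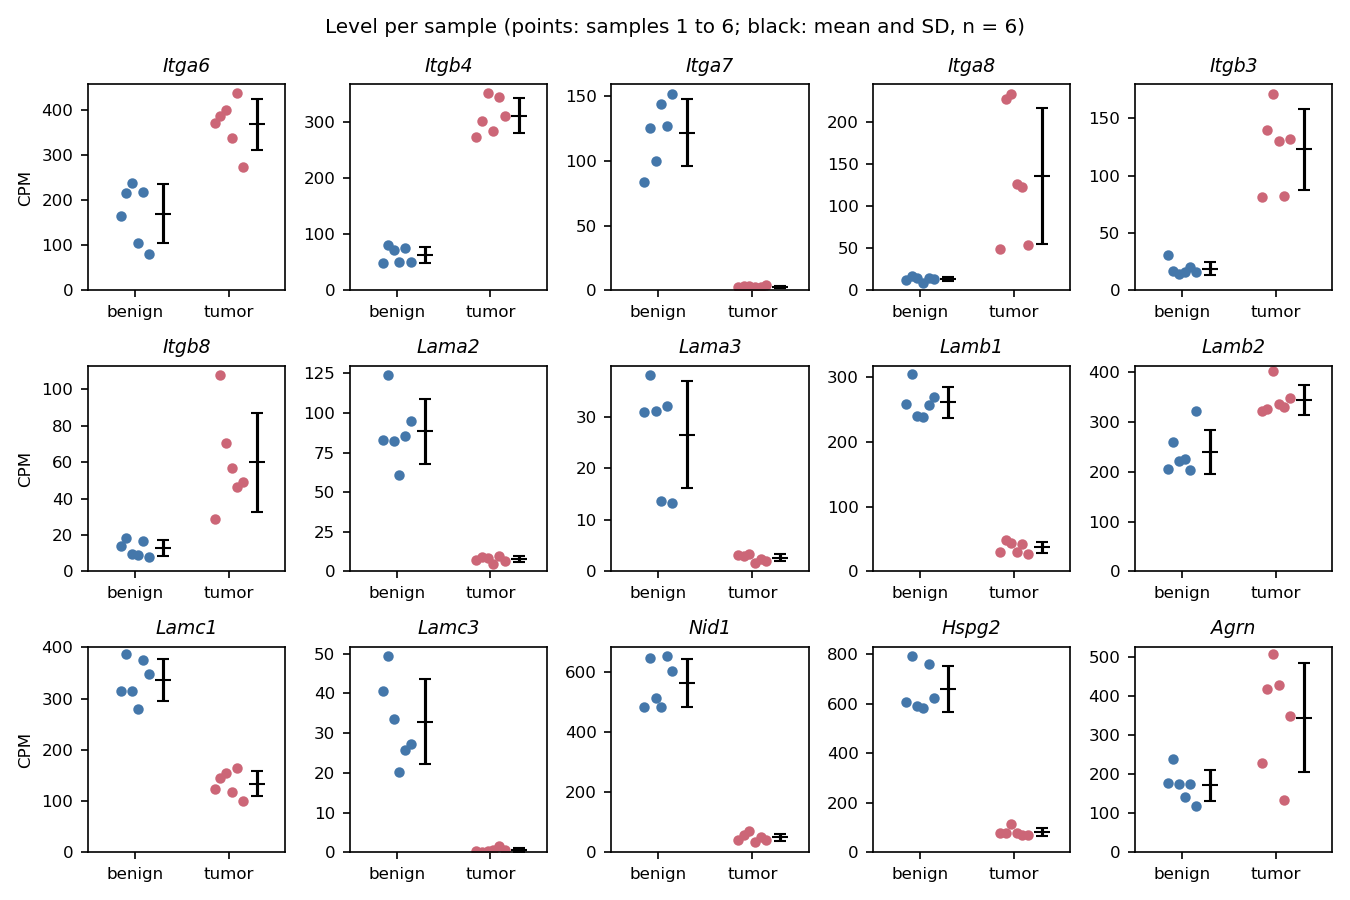
CPM (y axis, linear from 0, scaled for each gene) of 15 members in each of 6 benign samples (blue) and 6 tumors (red), with the group mean and SD in black beside the points. Itgb4, Itgb3 and Itga8 lie higher in all 6 tumors, Itga7, Lamb1, Nid1 and Hspg2 lie lower in all 6, and the tumor points of Agrn reach into the benign range.

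All 4 collagen-binding alpha subunits were lower in tumors. Itga1, found mostly on mesenchymal cells, was at 81.9, 62.0, 40.2, 71.8, 45.8 and 69.2 CPM in benign samples and at 24.3, 21.2, 27.6, 16.7, 32.1 and 13.3 CPM in tumors, with no overlap (log2 fold change -1.46, SE 0.23, edgeR adjusted p = 0.00016). Itga2, an epithelial and platelet subunit, was at 21.5, 23.6, 12.5, 9.62, 21.9 and 6.39 CPM in benign samples and at 1.09, 12, 9.39, 3.24, 3.45 and 2.30 CPM in tumors. Tumors 2 and 3 fell inside the benign range for Itga2, and its log2 fold change was -1.60 (SE 0.53, edgeR adjusted p = 0.020). Itga11, a subunit of fibroblasts, fell from 9.78 ± 2.16 to 2.51 ± 0.816 CPM, and Itga10 from 6.36 ± 1.70 to 4.23 ± 1.11 CPM (SD, n = 6), the latter with an edgeR adjusted p of 0.058 that rose past the threshold in 6 of 12 fits without 1 sample. The fibroblast marker sums given above were lower in the same tumors, and their part in the result was not tested.

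The alpha 4 and alpha 9 subunits, which bind fibronectin, tenascin or VCAM1, were both lower. Itga4, mostly a leukocyte subunit, was at 50.4 CPM in benign sample 1, at 4.74 to 6.09 CPM in the other benign samples and at 1.53 to 3.44 CPM in tumors. The log2 fold change was -2.34 (edgeR adjusted p = 0.0088) with benign sample 1 and -1.01 without it. For Itga9 benign samples averaged 18.8 ± 2.08 CPM and tumors 12 ± 5.59 CPM (SD, n = 6, edgeR adjusted p = 0.045), and it lost its call in 5 of 12 fits without 1 sample.

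The leukocyte integrins were lower or not called. Of 6 tested, Itgb7, Itgb2 and Itgal were lower, and Itgae, Itgam and Itgax were not called. For all but Itgam, benign sample 1, the leukocyte-rich sample, held the highest benign value, and for Itgax tumors 2 and 3 were higher still. Itgb7, a lymphocyte subunit, was at 156, 9.43, 8.84, 7.84, 7.87 and 11.7 CPM in benign samples and at 1.25, 0.550, 1.44, 1.62, 1.79 and 0.439 CPM in tumors. All tumors lay below all benign samples. Tumors 1 to 6 held 8, 4, 12, 12, 14 and 4 counts of Itgb7, which passed the filter on low counts only through the benign samples. Its log2 fold change of -4.81, or -2.89 without benign sample 1, is therefore a description.

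Itgb2, the beta subunit shared by leukocyte integrins, was at 122, 28.2, 23.5, 17.6, 28.3 and 20.6 CPM in benign samples and at 10.1, 16.4, 17.6, 12.8, 7.80 and 9.33 CPM in tumors. The log2 fold change was -1.69 (edgeR adjusted p = 0.0079), or -0.89 without benign sample 1. Itgal, the alpha subunit of LFA-1, was at 116 CPM in benign sample 1 and at 4.79 to 8.31 CPM in the other benign samples, against 2.30 to 10.1 CPM in tumors. The log2 fold change of -1.91 (edgeR adjusted p = 0.068) turned to 0.10 (adjusted p = 0.81) without benign sample 1. With the replicate number as a block it was -0.66 (adjusted p = 0.39), although same-numbered samples came from different mice.

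The subunits of myeloid cells were not called. Of 8 macrophage markers, 6 were lower in tumors and 2 were not called. Their sums ran from 442 to 601 CPM in benign samples and from 220 to 565 CPM in tumors. Itgam averaged 16.7 ± 3.02 and 17.2 ± 5.18 CPM, and Itgax 10.1 ± 6.73 and 15.1 ± 9.38 CPM in benign tissue and tumors (SD, n = 6, edgeR adjusted p = 0.87 and 0.37). Without benign sample 1 the log2 fold change of Itgax was 0.98 (adjusted p = 0.13) in place of 0.58. Itgae, a subunit of intraepithelial T cells, averaged 9.49 ± 7.81 and 4.82 ± 2.74 CPM (adjusted p = 0.10, not called), and its log2 fold change was -0.97, or -0.35 (adjusted p = 0.45) without benign sample 1. Itgad was too low to test in the fit, at 0.782 ± 0.502 and 0.610 ± 0.380 CPM (SD, n = 6, exact two-sided permutation p = 0.446).

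Most laminin chains were lower in tumors, and the losses fell on some chains while others were not called or rose. Among the alpha chains, alpha 2 and alpha 3 fell furthest. Lama2, the chain of muscle, nerve and stromal basement membranes, was at 83.0, 124, 82.3, 60.9, 85.2 and 94.8 CPM in benign samples and at 7.16, 9.08, 8.67, 4.59, 9.97 and 6.37 CPM in tumors (log2 fold change -3.53, SE 0.21, edgeR adjusted p = 3.4e-08). Benign samples low in muscle markers held 83.0, 124 and 85.2 CPM of Lama2, and those rich in them held 82.3, 60.9 and 94.8 CPM. The part of muscle content in the fall of Lama2 was not tested. Lama3, the alpha chain of the hemidesmosomal laminin, was at 30.9, 38.1, 31.1, 13.7, 32.0 and 13.3 CPM in benign samples and at 3.11, 3.03, 3.37, 1.62, 2.43 and 2.09 CPM in tumors (log2 fold change -3.34, SE 0.32, edgeR adjusted p = 1.6e-06). For both chains every tumor lay well below every benign sample.

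Lama1 was at 12.4 to 61.1 CPM in benign samples and at 2.05 to 13.4 CPM in tumors, with 5 tumors below every benign sample and a log2 fold change of -2.08 (SE 0.45, edgeR adjusted p = 0.0016). Lama4, the alpha chain of vessel and fat cell basement membranes, fell only from 152 ± 12.7 to 121 ± 19.5 CPM (SD, n = 6), a log2 fold change of -0.32 (edgeR adjusted p = 0.032) that lost its call without benign samples 3, 4 and 6 (adjusted p = 0.127) and in 5 of 12 fits without 1 sample. Lama5, the broadly expressed epithelial and endothelial chain, was at 120, 167, 129, 232, 124 and 188 CPM in benign samples and at 131, 287, 324, 178, 385 and 67.5 CPM in tumors. The tumors spanned a wider range than the benign samples on both sides, and Lama5 was not called (log2 fold change 0.52, SE 0.36, edgeR adjusted p = 0.23). Without tumor 6 its log2 fold change was 0.78 (adjusted p = 0.032).

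The beta chains moved apart. Lamb1 (chr12:31265234-31329644, plus strand), the common beta chain, was at 259, 303, 240, 237, 256 and 268 CPM in benign samples and at 29.6, 48.5, 44.3, 29.7, 41.9 and 27.4 CPM in tumors (log2 fold change -2.82, SE 0.16, edgeR adjusted p = 2.4e-08). Lamb2 (chr9:108479736-108490530, plus strand), the beta chain best known from synapses, kidney and vessels, was at 205, 260, 222, 226, 205 and 321 CPM in benign samples and at 323, 327, 403, 337, 329 and 348 CPM in tumors. Neither chain overlapped between groups, though for Lamb2 the highest benign sample and the lowest tumor were close, and its log2 fold change was 0.52 (SE 0.13, edgeR adjusted p = 0.0040). Lamb3, the beta chain of the hemidesmosomal laminin, was at 54.5, 73.8, 51.8, 33.8, 60.1 and 25.6 CPM in benign samples and at 14.5, 97.5, 69.2, 24.4, 3.96 and 21.7 CPM in tumors. Tumor 2 lay above every benign sample and tumor 3 within the benign range. In 4 tumors Lamb3 lay below every benign sample, furthest in tumor 5, and no difference was called (edgeR adjusted p = 0.60).

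Lamc1 and Lamc3 were lower as well. Lamc1, the common gamma chain, was at 315, 387, 314, 280, 375 and 348 CPM in benign samples and at 124, 146, 155, 118, 165 and 99.9 CPM in tumors (log2 fold change -1.33, SE 0.14, edgeR adjusted p = 4.7e-06). Lamc3 (chr2:31887291-31946539, plus strand) was at 20.3 to 49.3 CPM in benign samples, while tumors 1 to 6 held 3, 0, 3, 4, 13 and 6 counts. It passed the filter on low counts only through the benign samples, so its log2 fold change of -5.68 is a description. Neither overlapped between groups.

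Per length, the ratio of Lamb2 to Lamb1 was 0.815 to 1.23 in benign samples and 6.92 to 13.0 in tumors, or 1.29 to 1.96 and 11.0 to 20.7 with the union of exons as length.

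Chain shares describe the same data within a sample. Each share is a chain's counts per kilobase of its longest coding transcript, as a percentage of its class, and the shares of a class are bound to sum to 100. Among beta chains, Lamb1 made up 42.6 to 48.4% in benign samples and 6.67 to 10.9% in tumors, while Lamb2 made up 39.1 to 52.5% and 67.1 to 87.9%. These beta chain shares depend on the length used. With the union of exons, Lamb2 stood at 1.29 to 1.96 times Lamb1 in benign samples. Among alpha chains, Lama2 made up 11.8 to 20.4% in benign samples and 1.25 to 2.80% in tumors and Lama3 2.20 to 5.91% and 0.402 to 0.980%, while Lama4 and Lama5 held most of the class in both groups and overlapped between them. Which of Lama4 and Lama5 was higher in tumors depended on the length used: their median tumor shares were 50.8 and 44.8% with the longest coding transcript and 34.5 and 60.4% with the union of exons.

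Among integrin beta subunits, Itgb1 held the largest median share in both groups, 56.2% in benign samples and 47.7% in tumors. Itgb4 made up 3.08 to 6.72% in benign samples and 14.0 to 20.7% in tumors, and Itgb3 made up 1.26 to 2.03% and 5.33 to 8.86%. Neither share overlapped between groups. In 9 of the 16 laminin alpha, laminin beta and integrin beta shares the groups did not overlap, and this held for the same chains with the union of exons as length.

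**Figure D3:**
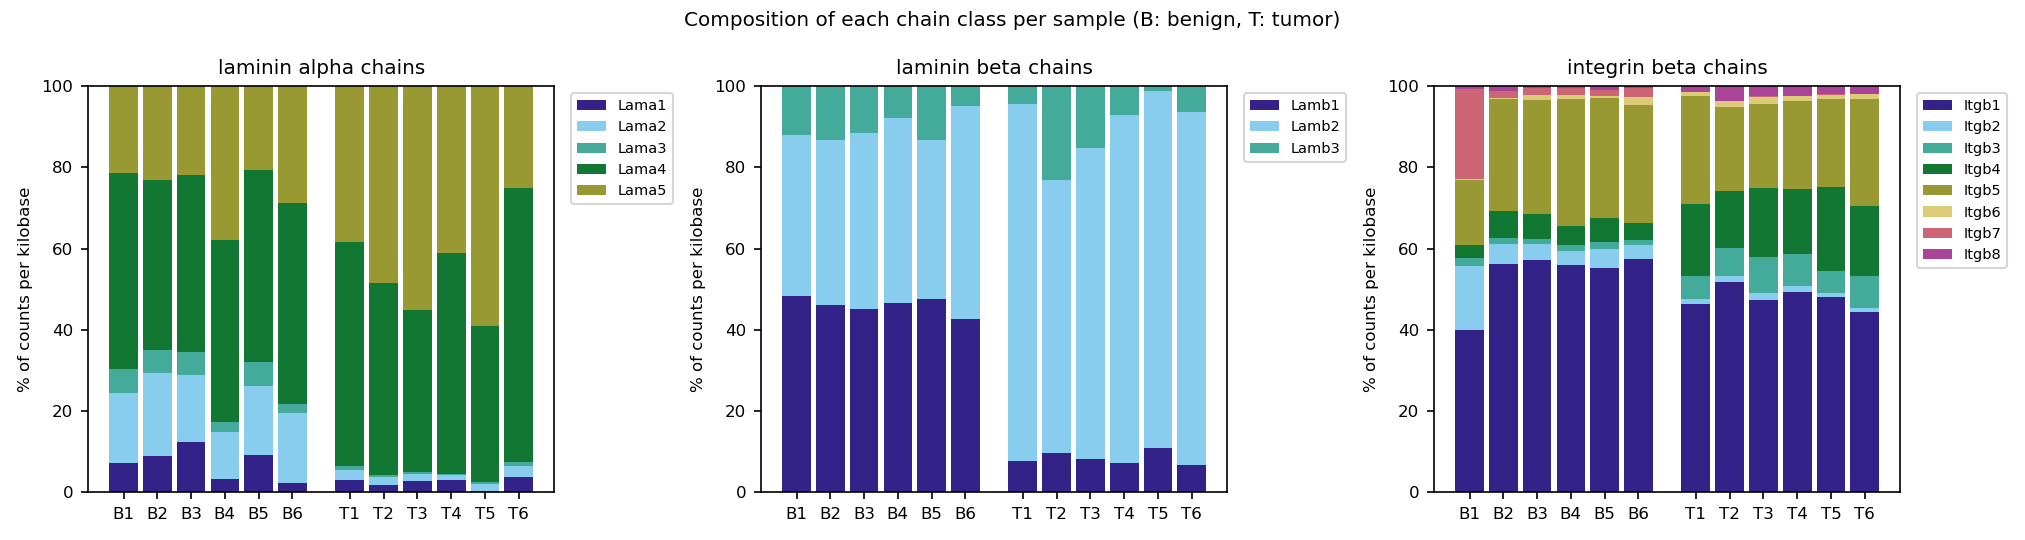
Share of each laminin alpha, laminin beta and integrin beta chain in each of the 12 samples, as stacked bars from 0 to 100. Shares are percent of the class, from counts per kilobase of the longest coding transcript. Lamb2 fills 67.1 to 87.9% of the laminin beta class in tumors and 39.1 to 52.5% in benign samples, and Itgb4 and Itgb3 widen in the beta subunit bars of the tumors.

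The linkers of the basement membrane were lower in tumors, while agrin was higher. Nid1 (chr13:13437551-13512269, plus strand), nidogen 1, was at 483, 646, 514, 483, 654 and 602 CPM in benign samples and at 41.3, 58.6, 69.9, 35.9, 51.0 and 41.8 CPM in tumors (log2 fold change -3.50, SE 0.19, edgeR adjusted p = 1.3e-08). Hspg2 (chr4:137468769-137570630, plus strand), perlecan, was at 606, 794, 591, 584, 760 and 622 CPM in benign samples and at 77.2, 80.0, 114, 79.8, 69.1 and 70.0 CPM in tumors (log2 fold change -3.01, SE 0.16, edgeR adjusted p = 1.1e-08). Both were far below the benign range in all 6 tumors, and Nid2 fell from 78.6 ± 23.9 to 18.7 ± 6.31 CPM (SD, n = 6), also without overlap.

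Agrn was at 177, 239, 176, 142, 175 and 120 CPM in benign samples and at 228, 417, 508, 429, 133 and 350 CPM in tumors. It was above every benign sample in 4 tumors, within the benign range in tumors 1 and 5, and its log2 fold change was 1.01 (SE 0.28, edgeR adjusted p = 0.0088). Dag1 was at 287, 340, 399, 377, 321 and 455 CPM in benign samples and at 207, 293, 328, 248, 286 and 198 CPM in tumors. The groups overlapped, and its log2 fold change of -0.48 (SE 0.16, edgeR adjusted p = 0.019) was -0.24 (adjusted p = 0.28) without benign samples 3, 4 and 6. The fibroblast, endothelial, white fat and myoepithelial marker sums given above were lower in the same tumors as the laminin chains, nidogens and Hspg2, and their part in the result was not tested.

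Ordered by level per length of the longest coding transcript, Itgb1 was highest in both groups, at 109 ± 5.87 CPM per kilobase in benign tissue and 142 ± 23.4 in tumors (SD, n = 6). In benign tissue Nid1 came next at 92.6 ± 13.1 CPM per kilobase, followed by Dag1 (64.2), Itgb5 (54.1), Hspg2 (46.5), Lamb1 (45.0), Lamc1 (44.2) and Lamb2 (42.6), of which the last 4 lay close together. In tumors Itga6 came next at 85.3 ± 13.3 CPM per kilobase, followed by Itgb5 (67.5), Lamb2 (61.2), Itgb4 (50.1), Agrn (47.4) and Dag1 (46.0). These places depend on the length used. With the union of exons, Itga6 was at 40.7 CPM per kilobase in tumors, below Itgb5 (62.3), Lamb2 (56.7) and Itgb4 (44.3), while Itgb1 was highest in both groups and Nid1 next in benign tissue with either length.

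Tumors differed among themselves far more in some members than in others. On the log2 CPM scale the SD over the 6 tumors was 0.12 for Lamb2, 0.14 for Itgb4 and 0.15 for Itgb5, but 1.63 for Lamb3, 1.19 for Itga2, 1.07 for Itgax, 0.98 for Itga8 and 0.95 for Lama5. For Itgb4 the tumors were closer to each other than the benign samples were (SD 0.33), and for Lamb3 and Itga8 they were further apart (0.56 and 0.32 in benign samples). Among the 13 members that were higher, tumor 3 was the highest tumor in 8 and tumor 1 the lowest in 7.

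The proteins that work with these receptors and matrix components were read from 7 lists with 115 genes, of which 109 were tested. In all, 38 were higher and 46 lower (34.9% and 42.2%, beside 28.2% and 34.8% of all genes), with a median log2 fold change of -0.22. The share called was 58.3% for dystroglycan glycosylation and 64.7% for the other integrin ligands, near the 63.0% of all genes, and 75 to 90.9% for the other 5 lists. Of 28 adhesion plaque genes, whose proteins join integrins to actin, 8 were higher and 13 lower. The actin crosslinker Actn4 rose from 625 ± 121 to 3957 ± 613 CPM, and Tns1 (tensin 1) and Lims2 (PINCH2) fell from 955 ± 351 to 34.3 ± 7.99 CPM and from 83.7 ± 28.6 to 3.48 ± 0.688 CPM (SD, n = 6). None of these 3 genes overlapped between groups.

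Of 8 hemidesmosome and tetraspanin partners of the laminin-binding integrins, 4 were higher and 3 lower. The tetraspanins Cd9 and Cd82 rose (log2 fold change 1.32 and 1.19), Cd151, a tetraspanin that binds alpha 3 and alpha 6 integrins, fell by 1.38 on the log2 scale, and Col17a1, the transmembrane collagen of hemidesmosomes, fell from 38.5 ± 13.3 to 1.05 ± 1.48 CPM (SD, n = 6). Col17a1 held 2, 0, 33, 2, 5 and 10 counts in tumors 1 to 6 and passed the filter on low counts only through the benign samples, so its log2 fold change of -5.13, or -6.19 without tumor 3, is a description.

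Of 11 tested genes of the dystrophin-glycoprotein complex, which anchors dystroglycan inside the cell, 4 were higher and 5 lower. Sntb2 and Dtnb, a syntrophin and a dystrobrevin, rose (log2 fold change 1.97 and 1.89), while the sarcoglycans Sgce and Sgcd fell from 49.2 ± 9.04 to 1.55 ± 0.398 CPM and from 10.3 ± 2.81 to 0.0838 ± 0.104 CPM (SD, n = 6). Sgce held 10, 14, 8, 9, 13 and 18 counts in tumors 1 to 6, and Sgcd held 0, 1, 0, 0, 2 and 1. Both passed the filter on low counts only through the benign samples. Of 12 enzymes that add the laminin-binding glycan to dystroglycan, 5 were higher and 2 lower. Pomgnt1 and Pomk rose (log2 fold change 0.69 and 0.48), and B4gat1, which acts at the laminin-binding end of the glycan, fell (log2 fold change -0.64).

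Of 22 other basement membrane proteins tested, 8 were higher and 12 lower. Npnt encodes nephronectin, a ligand of the integrin of alpha 8 and beta 1. It was at 11.7, 16.7, 19.4, 13.7, 19.1 and 24.0 CPM in benign samples and at 1088, 558, 726, 1154, 1158 and 1133 CPM in tumors, a log2 fold change of 5.80 (SE 0.27, edgeR adjusted p = 4.9e-09). Every tumor lay above every benign sample for both the ligand and Itga8, but tumors 2 and 3, highest in Itga8, were the lowest tumors in Npnt. Papln rose from 12.4 ± 5.72 to 1365 ± 244 CPM (SD, n = 6). The study singled Papln out on these same samples, so its direction here is not independent evidence. Frem1 and Frem2, proteins of the epithelial basement membrane, were lower. Frem1 fell from 19.8 to 1.23 CPM on average, with 4, 6, 9, 12, 16 and 11 counts in tumors. Frem2 was at 5.20 CPM in benign tissue and at 0, 2, 6, 1, 4 and 0 counts in tumors. Both passed the filter on low counts only through the benign samples.

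Of 17 other integrin ligands tested, 3 were higher and 8 lower. Thbs1 (thrombospondin 1) rose from 139 ± 52.3 to 875 ± 517 CPM (SD, n = 6) without overlap. Spp1 (osteopontin), a ligand of alpha v integrins, was at 174, 2097, 2693, 303, 145 and 82.8 CPM in tumors and at 5.56 to 114 CPM in benign samples. Its log2 fold change of 3.79 (SE 1.05, edgeR adjusted p = 0.0077) leaned on tumors 2 and 3, was 3.15 without tumor 3, and was 5.12 without benign samples 3, 4 and 6. Vtn (vitronectin) and Icam2, a ligand of LFA-1, fell (log2 fold change -3.98 and -3.67), with medians of 9.5 and 10.5 counts in tumors. Vtn and Icam2 passed the filter on low counts only through the benign samples, so these folds are descriptions. Of 11 further laminin and matrix receptors tested, 6 were higher, among them Sdc4 (132 to 542 CPM) and Cd44 (41.1 to 125 CPM), and 3 were lower, among them the collagen receptor Ddr2 (70.6 to 9.01 CPM) and Cd47 (205 to 87.8 CPM).

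**Figure D4:**
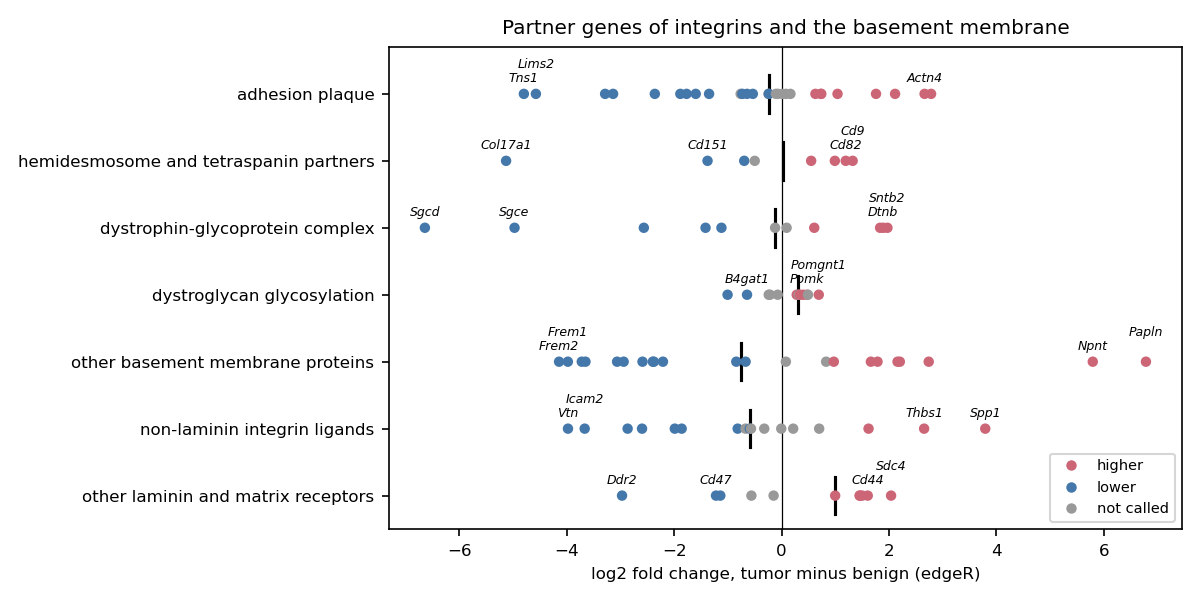
Log2 fold change in tumors over benign tissue (x axis) of each tested gene in the 7 lists (y axis), 1 point a gene, with the list's median marked. Other laminin and matrix receptors have a median of 1.0 and other basement membrane proteins a median of -0.76, and every list holds genes on both sides of 0.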

How the data were processed

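Total RNA of 6 benign and 6 tumor samples was enriched for poly A, made into directional libraries and sequenced as paired reads. The authors deposited whole-number counts per gene symbol for 16411 genes, not scaled between samples, and the submitters' processing notes name Trim Galore, Salmon, DESeq2 and mm10, while the annotation and versions are not given in the sources used here. Salmon shares reads between similar transcripts by estimation, so counts of close paralogs are less certain. All 12 columns were matched to labelled samples (0 were not).

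Counts were tested in R 4.3.3 with edgeR 4.0.16 (TMM scaling, filterByExpr with a minimum count of 10 and a minimum total of 15, quasi-likelihood test, 6 against 6 without covariates), which left 13191 genes, with Benjamini-Hochberg adjustment and a threshold of 0.1. CPM use the same scaling. Each SE of a log2 fold change is its absolute value divided by the square root of the F statistic of that test. Single values below the filter were tested by exact permutation over 924 regroupings, which can give no p under 0.00216. DESeq2 1.42.0 was an alternative. Gene lengths and coordinates are from GENCODE M21 (GRCm38), which may differ from the authors' annotation, and promoters from RefSeq (GRCm38.p6). No pair of replicates was alike within sampling noise (chi-square per degree of freedom of at least 12.5). Common biological coefficient of variation was 0.35. The labels do not say that replicates came from separate mice beyond being separate samples, while the paper gives 6 biological replicates per group. The tests set each group difference against the spread between these samples. Same-numbered benign and tumor samples were of different mice.

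The members, pathway lists and marker lists were chosen with earlier results of these data known. The members are named by role. Of each pathway list, the 2 called genes that rose most and the 2 that fell most, with a mean of at least 5 CPM in the higher group, are named. A few genes are not reported here, and the counts include them.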

Additional observations from a re-analysis of the deposited data

Results flagged for a closer look

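In 11 of 84 groups of 6 samples tested, 1 sample stood apart from the other 5 by Dixon's criterion, which chance meets in about 1 of 20 groups. Benign sample 1 held 6 of the 11. It was high at 50.4 CPM for Itga4 (4.74 to 6.09 in the other benign samples), 25.2 CPM for Itgae (3.96 to 7.99), 116 CPM for Itgal (4.79 to 8.31), 122 CPM for Itgb2 (17.6 to 28.3) and 156 CPM for Itgb7 (7.84 to 11.7). It was low at 136 CPM for Itgb5 (175 to 200). Its summed leukocyte markers were at 2092 CPM, and their part in these values was not tested.

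The other 5 were spread over 4 samples. Benign sample 2 was at 1.79 CPM for Itgad (0.528 to 0.749 in the others), and benign sample 5 at 70.3 CPM for Itgav (49.3 to 54.1). Tumor 3 was at 114 CPM for Hspg2 (69.1 to 80.0 in the other tumors) and at 403 CPM for Lamb2 (323 to 348). Tumor 5 was at 2.05 CPM for Lama1 (8.56 to 13.4).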

How the results depend on the processing

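Under DESeq2, other scalings, other filters, a threshold of 0.05, the replicate block and fits without samples, 11 to 14 members were higher and 18 to 23 lower. Without each sample in turn the ranges were the same, 11 (without benign sample 4) to 14 (without tumor 6) higher and 18 (without tumor 1 or tumor 6) to 23 (without benign sample 3) lower. Of 41 members, 33 kept their call in all 12 such fits. The log2 fold change of Itgal ran from -2.13 without benign sample 6 to 0.10 without benign sample 1, where it reversed. DESeq2 called 13 members higher and 20 lower, gained Itgae, and gave no adjusted p for Itga4, Itgal and Itgb7. Same-numbered samples did not deviate together (correlations from -0.124 to 0.103, 0 of 6 best with its own number). With the replicate block, 13 members were higher and 21 lower, and only Itgal lost its call. All 26 named list genes kept theirs in every fit that tested them. Without benign samples 3, 4 and 6, members that lost their calls included Dag1, Itga9 and Lama4, and Itgae gained one. With the union of exons as length, chosen after the data were seen, 8 of 32 median chain shares moved by more than the spread between replicates. Depth limited Itgad in both groups and Lamc3 and Itgb7 in tumors, where counts were few.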
